A study of Mus musculus with 6 samples.

Results

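The genes described here are 33 genes of the endoplasmic reticulum (ER), the compartment in which secreted and membrane proteins are folded. They were taken by name from a list of ER chaperones, degradation factors and transport factors, drawn up with earlier results of these data known. All 33 were among the 18122 genes with a deposited count, and all 33 passed the filter on low counts, which kept 13691 genes. By role, 3 are sensors or transcription factors of the unfolded protein response, 9 are HSP70 or HSP90 chaperones and their helpers, and 2 are lectin chaperones. A further 6 are disulfide or prolyl isomerases, 7 act in ER-associated degradation, 4 belong to the translocon and 2 to the COPII coat.

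RNA was measured in cultured group 2 innate lymphoid cells (ILC2s), lymphocytes without antigen receptors that secrete type 2 cytokines, sorted from mouse lung. The 3 wild-type (WT) libraries came from mice labelled BALB/C BYJ. The other 3 libraries (ICOS KO, also called knockout libraries) came from mice labelled C.129S4-Icostm1Shr/J, in which Icos, encoding the inducible T cell co-stimulator, carries a targeted allele. All 6 libraries are of the same tissue, cell type and preparation, with 10 pg of RNA each, and the labels name no treatment, age or sex. Strain name and Icos allele go together in this design and cannot be told apart. Whether the 3 libraries of a group stem from 3 animals is not stated in the labels, so p-values below rest on a spread between libraries that may be technical.

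Proteins enter the ER through the Sec61 translocon, are folded there by chaperones and isomerases, and leave in COPII-coated vesicles. Proteins that fail to fold are recognised, pulled back through the membrane and degraded, a route called ER-associated degradation. When unfolded protein builds up, membrane sensors start the unfolded protein response, which raises transcription of chaperone and degradation genes through XBP1 and ATF6. ILC2s secrete cytokines, which pass through this machinery.

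The DNA sequence best known for this response is the ER stress element, CCAAT followed by any 9 bases and CCACG. RefSeq promoter windows (GRCm38.p6, 250 bases before to 50 bases after a transcription start) were found for 28 of the 33 genes. Atf6, Hyou1, Manf, Derl1 and Sec61a1 had none. The element occurred on either strand in 8 of these 28 genes (28.6%), against 37 of 27025 genes with a window (0.137%) and 15 of 9543 tested genes with a window (0.157%). The element was itself defined on promoters of ER chaperones, Hspa5 among them, so its share here is a description of the list. The 9 matches are shown because they are the regulatory sequence that these 8 genes share, each read in the direction of the element with its fixed ends in capitals. Positions are chr8:84847075-84847093 on the plus strand for Calr, chr11:50325800-50325818 on the minus strand for Canx and chr15:88819520-88819538 on the minus strand for Creld2. Those of Dnajc3, Hspa5, Pdia6 and Syvn1 lie on the plus strand at chr14:118937827-118937845, chr2:34772025-34772043, chr12:17266491-17266509 and chr19:6046532-6046550. Hsp90b1 had a pair, the first at chr10:86705638-86705656 on the minus strand and the second at chr10:86705533-86705551 on the plus strand.
Calr: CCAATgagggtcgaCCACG
Canx: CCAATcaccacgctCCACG
Creld2: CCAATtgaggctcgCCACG
Dnajc3: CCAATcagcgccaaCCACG
Hsp90b1 (first): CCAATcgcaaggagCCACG
Hsp90b1 (second): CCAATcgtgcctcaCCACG
Hspa5: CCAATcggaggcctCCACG
Pdia6: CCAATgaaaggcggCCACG
Syvn1: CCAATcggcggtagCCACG

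The matches began between 212 and 44 bases before the start site, and in Calr, Creld2 and the second Hsp90b1 match the element ran against the direction of the gene. Each end of the element is common. CCACG alone was present in 85.7% of the 28 genes and 35.5% of all genes with a window, and CCAAT alone in 82.1% and 41.1%. The related UPR element TGACGTGG was found in Sec24d and Txndc5 (7.14% of the 28 genes, against 0.714% of all genes). TGACGTGG does not contain CCACG on its own strand, but its reverse complement begins with it, so a match to it is also a match to CCACG.

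**Figure D1:**
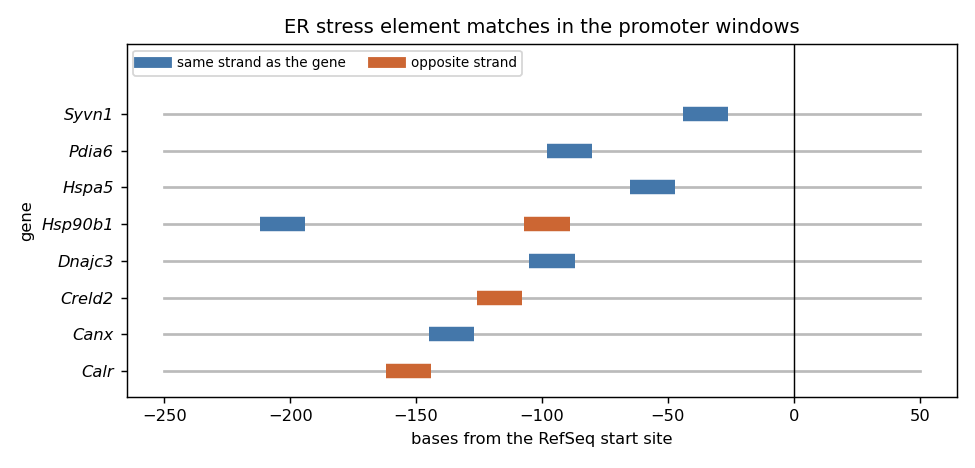
Position of each ER stress element match in the promoter windows of 8 genes, in bases from the RefSeq transcription start (horizontal axis; grey line, the window). Blue boxes are matches in the direction of the gene and orange boxes against it. All 9 matches lie before the start, between 212 and 26 bases from it.

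Whole upstream windows (250 bases, in the direction of the gene) are given for 3 genes that contrast in what follows. Creld2 (chr15:88819396-88819645, plus strand) holds an element and was higher in ICOS KO. Hspa5 (chr2:34771840-34772089, plus strand) holds an element and did not pass the test. Os9 (chr10:127121161-127121410, minus strand) was higher in ICOS KO and has no full element in its window. Capitals mark the fixed bases of the element, which in Creld2 reads on the other strand and therefore appears as CGTGG, 9 bases and ATTGG.
Creld2: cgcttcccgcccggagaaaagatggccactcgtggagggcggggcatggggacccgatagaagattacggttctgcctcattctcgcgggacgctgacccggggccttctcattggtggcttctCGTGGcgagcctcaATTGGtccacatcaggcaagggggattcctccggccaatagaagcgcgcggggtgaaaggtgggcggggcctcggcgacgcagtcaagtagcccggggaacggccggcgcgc
Hspa5: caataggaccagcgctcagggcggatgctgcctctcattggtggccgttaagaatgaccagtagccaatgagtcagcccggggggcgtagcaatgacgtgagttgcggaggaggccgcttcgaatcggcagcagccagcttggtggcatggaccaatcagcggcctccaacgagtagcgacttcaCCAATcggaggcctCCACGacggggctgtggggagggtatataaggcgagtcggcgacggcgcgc
Os9: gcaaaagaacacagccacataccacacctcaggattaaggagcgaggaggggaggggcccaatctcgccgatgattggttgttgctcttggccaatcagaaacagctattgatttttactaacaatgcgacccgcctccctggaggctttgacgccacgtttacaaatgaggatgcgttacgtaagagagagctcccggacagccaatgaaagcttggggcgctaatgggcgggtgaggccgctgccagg

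Library totals ran from 14976130 to 18736474 estimated counts in WT and from 13738062 to 15543034 in ICOS KO. In these libraries 3 counts equal 0.16 to 0.218 CPM (counts scaled to the library's total). Malat1 below is scaled in the same way, and all other CPM also carry TMM factors. Icos itself stood at 434.3, 462.2 and 501.7 CPM in the WT libraries and at 139.9, 170.2 and 161.4 CPM in the knockout libraries (log2 fold change -1.57 ± 0.10, SE, with an edgeR adjusted p of 1.27e-05). The mitochondrial share of counts was 0.263% to 0.422% in WT and 0.329% to 0.616% in ICOS KO, and the nuclear RNA Malat1 ranged from 628.6 to 1014 CPM and from 807.9 to 1609 CPM. The 14 ILC2 markers summed to 11960 to 13190 CPM in WT and 12260 to 12970 CPM in ICOS KO, of which Il5 made up 5970 to 7027 and 5694 to 6263 CPM, and Thy1 was low at 6.523 to 14.3 CPM over all libraries. Of these markers Areg, Klrg1, Arg1 and Il1rl1 were called higher and Icos and Rora lower. The Il1rl1 and Rora calls were lost without WT replicate 1, WT replicate 2 or ICOS KO replicate 3, and that of Il1rl1 also without WT replicate 3. Across all genes, edgeR called 451 (3.29% of those tested) at an adjusted p under 0.05, with 176 (1.29%) higher in ICOS KO and 275 (2.01%) lower. Scaling to library totals gave 127 higher and 324 lower, and removing the trend with transcript length and GC content gave 357 higher and 256 lower.

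The ER genes were among the more abundant transcripts of these cells. Their mean CPM ranked from percentile 36.8 (Dnajb9) to 99.7 (Hspa5, Pdia3 and Pdia6) among tested genes. Per kilobase of exonic sequence, WT levels were highest for Pdia3 at 466.2, Calr at 439.1 and Sdf2l1 at 420.8 CPM per kb. They were lowest for Atf6 at 5.899, Dnajb9 at 3.662 and Ern1 at 3.55 CPM per kb, so Ern1 and Atf6, which encode sensors, were scarce beside most of the chaperones. In WT, the neighbours Pdia3 (± 25.69, SD) and Calr (± 16.51) differed by about 1 SD, within their spread, and Dnajb9 (± 0.5173) and Ern1 (± 0.3509) by less.

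The comparison asked which of these genes differed between ICOS KO and WT cells. Creld2, Manf and Os9 were higher in ICOS KO, by 1.328-, 1.407- and 1.37-fold, and 30 of the 33 genes did not pass the test in either direction. No gene was called lower, and 10 of the 33 genes had an unadjusted p under 0.05 (19.8% of all tested genes did), of which Sec23b alone was lower. The count of 3 called higher of 33 stands beside 1.29% of all tested genes called higher. Every ICOS KO library was above every WT library for 12 of the 33 genes, against 11.9% of all tested genes, and below for 0 of the 33, against 12.5%. The median log2 fold change of the 33 genes was 0.06 and that of all tested genes 0. Of the 33 genes, 12 had a negative value, against 50.4% of all tested genes. Fold changes ran from -0.29 to 0.50 with a median SE of 0.1. Depending on the library left out, the number called higher was 0 (without WT replicate 1, WT replicate 2 or ICOS KO replicate 3), 1 (without WT replicate 3), 2 (without ICOS KO replicate 2) or 5 (without ICOS KO replicate 1), against 3 with all libraries. Among all genes, 70, 69 and 75 were called higher in the fits with 0, and 153 without WT replicate 3. They numbered 116 without ICOS KO replicate 2 and 491 without ICOS KO replicate 1, against 176 with all libraries. Scaling to library totals left 1 gene called and a median of 0.001, while the median of all tested genes moved from -0.004 to -0.068.

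**Figure D2:**
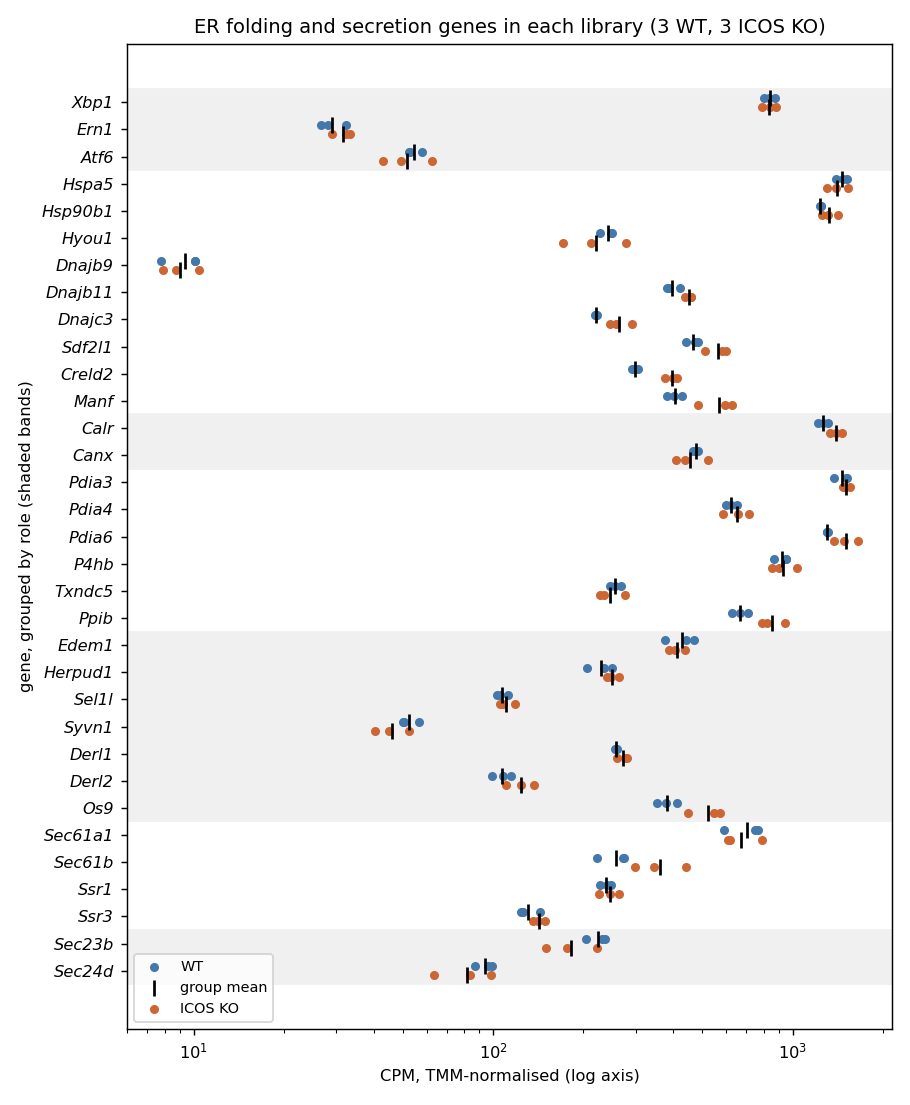
Level of each of the 33 ER genes in each library, as TMM-normalised CPM on a log axis (blue, 3 WT libraries; orange, 3 ICOS KO libraries; black bars, group means), grouped by role in shaded bands. The groups are apart for 12 genes, such as Creld2 (290.5 to 304.4 against 374.2 to 412 CPM), and overlap for the others, such as Hspa5.

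The 3 sensors and transcription factors did not pass the test. Xbp1, the transcription factor whose mRNA is spliced by the sensor IRE1 (chromosome 11, 5520659 to 5525893, GRCm38), stood at 875.4, 834.4 and 804.9 CPM in the WT libraries and at 839.8, 789.6 and 879.1 CPM in the knockout libraries. The libraries of both groups overlapped fully, and the log2 fold change was 0 ± 0.08 (SE), with an edgeR adjusted p of 0.987. Counts per gene do not separate the spliced from the unspliced Xbp1 mRNA, so the activity of the pathway is not read from them. Ern1, which encodes IRE1, ranged from 26.74 to 32.23 CPM in WT and from 28.94 to 33.2 CPM in ICOS KO (log2 fold change 0.12 ± 0.14; edgeR adjusted p = 0.663). Atf6, a factor that is cut free of its membrane under ER stress, ranged from 52.43 to 58.04 CPM and from 42.9 to 62.65 CPM (-0.08 ± 0.14; edgeR adjusted p = 0.804). None of the 3 had an unadjusted p under 0.05, and none was called in any of 18 alternative settings.

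Among the 9 chaperones and helpers, the abundant chaperones did not pass the test and 2 other luminal proteins did. Creld2, an ER protein with EGF-like domains that is induced by ER stress (chromosome 15, 88819646 to 88826683, GRCm38), stood at 297.3, 290.5 and 304.4 CPM in the WT libraries and at 374.2, 398.9 and 412 CPM in the knockout libraries. Every ICOS KO library was above every WT library. Its mean rose from 297.4 ± 6.934 to 395.1 ± 19.2 CPM (SD, n = 3 per group), or by 0.41 ± 0.09 (SE) on the log2 scale, with an edgeR adjusted p of 0.0239. Manf, a secreted ER protein that binds the chaperone BiP (chromosome 9, 106838312 to 106891979), stood at 382, 401.4 and 427.1 CPM in the WT libraries and at 484.5, 625.3 and 593.9 CPM in the knockout libraries. Here too the groups did not overlap, and ICOS KO replicate 1 was the nearest to WT. Its mean rose from 403.5 ± 22.65 to 567.9 ± 73.93 CPM (SD, n = 3 per group), or by 0.49 ± 0.11 (SE) on the log2 scale, with an edgeR adjusted p of 0.0277. The Creld2 call was lost without WT replicate 1, 2 or 3, without ICOS KO replicate 3 and with library totals (edgeR adjusted p up to 0.163), and the Manf call on leaving out WT replicate 1, WT replicate 2, ICOS KO replicate 2 or ICOS KO replicate 3 (up to 0.154). In bulk RNA such a difference cannot be told apart from a different share of cells that express the gene, and Manf shares exonic bases with Dcaf1 (146) and the antisense RNA 4930524O07Rik (166), which counts without a known strand setting may not separate.

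Hspa5, which encodes BiP, the HSP70 chaperone of the ER (chromosome 2, 34771970 to 34777547), stood at 1519, 1475 and 1397 CPM in the WT libraries and at 1526, 1299 and 1396 CPM in the knockout libraries. The groups overlapped, and the log2 fold change was -0.06 ± 0.08 (SE), with an edgeR adjusted p of 0.737. Hsp90b1, the ER form of HSP90, stood at 1233, 1241 and 1244 CPM in the WT libraries and at 1418, 1252 and 1313 CPM in the knockout libraries. All ICOS KO libraries were above WT, the lowest by a few CPM, and the gene did not pass the test (log2 fold change 0.10 ± 0.08; edgeR adjusted p = 0.495). Hyou1, which exchanges the nucleotide of BiP, ranged from 227.6 to 249.2 CPM in WT and from 171.7 to 276.8 CPM in ICOS KO (-0.13 ± 0.15; edgeR adjusted p = 0.648). Its ICOS KO libraries lay on both sides of WT.

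The J-domain proteins that direct BiP to its clients did not pass the test, though some had groups that were apart. Dnajc3 stood at 218.7, 220.9 and 222.7 CPM in the WT libraries and at 257.3, 245.3 and 289.9 CPM in the knockout libraries (log2 fold change 0.26 ± 0.09; edgeR adjusted p = 0.166). Dnajb11 stood at 421.8, 386.1 and 382.2 CPM and at 456.9, 459.3 and 438.8 CPM (0.19 ± 0.09; edgeR adjusted p = 0.251). Its partner Sdf2l1 stood at 473.7, 483.1 and 441.7 CPM and at 511.5, 598.1 and 581.6 CPM (0.27 ± 0.09; edgeR adjusted p = 0.138). All ICOS KO libraries of these 3 genes were above all WT libraries. Sdf2l1 was called without ICOS KO replicate 1 (edgeR adjusted p = 0.0397). Dnajb9, the scarcest of the 33 genes by CPM, ranged from 7.812 to 10.1 CPM in WT and from 7.88 to 10.39 CPM in ICOS KO (-0.05 ± 0.22; edgeR adjusted p = 0.915).

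**Figure D3:**
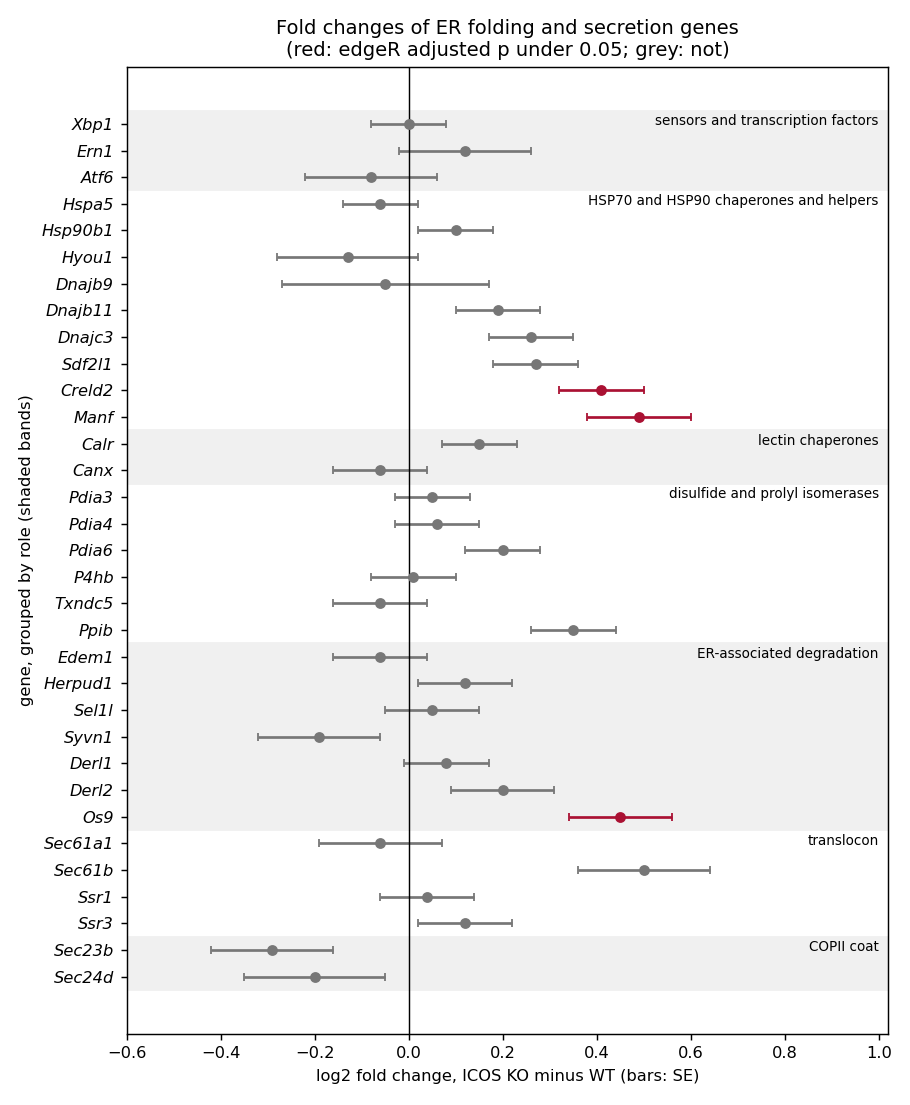
Log2 fold change of each of the 33 ER genes, ICOS KO minus WT (points; bars, SE), grouped by role. The 3 genes in red (Creld2, Manf and Os9) had an edgeR adjusted p under 0.05 and stand at 0.41 to 0.49. The other 30, in grey, run from -0.29 (Sec23b) to 0.50 (Sec61b).

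The lectin chaperones calreticulin and calnexin hold newly made glycoproteins by their sugar chains. Calr, the soluble one, ranged from 1216 to 1311 CPM in WT and from 1337 to 1463 CPM in ICOS KO, without overlap (log2 fold change 0.15 ± 0.08; edgeR adjusted p = 0.31). Canx, the membrane-bound one, ranged from 465.2 to 483.9 CPM and from 407.8 to 521.3 CPM (-0.06 ± 0.10; edgeR adjusted p = 0.784). Neither was called, and neither had an unadjusted p under 0.05.

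Of the 6 isomerases none was called, and 2 had an unadjusted p under 0.05. Ppib, cyclophilin B, which turns prolyl bonds, stood at 627.1, 665.9 and 708.3 CPM in the WT libraries and at 788.7, 945.1 and 821 CPM in the knockout libraries. Its groups did not overlap (log2 fold change 0.35 ± 0.09; edgeR adjusted p = 0.0694), and it was called in 5 of 18 alternatives, DESeq2 and the fit without ICOS KO replicate 1 among them (lowest adjusted p 0.0149). Ppib shares 825 exonic bases with Snx22 on the opposite strand. Pdia6, a protein disulfide isomerase, stood at 1307, 1306 and 1308 CPM in the WT libraries and at 1490, 1374 and 1649 CPM in the knockout libraries (0.20 ± 0.08; edgeR adjusted p = 0.212). Its WT libraries lay within a few CPM of each other, and all ICOS KO libraries were above them. The classical disulfide isomerases overlapped between the genotypes. Pdia3, the partner of the lectin chaperones, ranged from 1370 to 1515 CPM and from 1470 to 1560 CPM. P4hb, which also serves as a subunit of collagen prolyl hydroxylase, ranged from 863.9 to 949.4 CPM and from 852.3 to 1031 CPM. Pdia4 ranged from 600 to 651.3 CPM and from 584.4 to 716.1 CPM, and Txndc5 from 245.6 to 266.5 CPM and from 226.7 to 275.8 CPM. The edgeR adjusted p of these 4 lay between 0.743 and 0.952.

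Of the 7 degradation genes 1 was called. Os9 (chromosome 10, 127095650 to 127121131, GRCm38) encodes a lectin that hands misfolded glycoproteins to the ubiquitin ligase HRD1. It stood at 410.4, 378.8 and 354 CPM in the WT libraries and at 572.5, 446 and 547.6 CPM in the knockout libraries, so that all ICOS KO libraries were above WT and replicate 2 was the nearest. Its mean rose from 381.1 ± 28.28 to 522.1 ± 67 CPM (SD, n = 3 per group), or by 0.45 ± 0.11 (SE) on the log2 scale, with an edgeR adjusted p of 0.0467. The call was lost in 7 of 18 alternatives, namely without WT replicate 1, 2 or 3, without ICOS KO replicate 1 or 3, with library totals and with no filter (edgeR adjusted p up to 0.199). Os9 had 1 CCACG and no full ER stress element in its window.

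The other genes of the complex that Os9 serves were not called. Syvn1, which encodes HRD1, stood at 56.52, 50.59 and 50.15 CPM in the WT libraries and at 52.57, 40.29 and 44.83 CPM in the knockout libraries (log2 fold change -0.19 ± 0.13; edgeR adjusted p = 0.431). Its adaptor Sel1l ranged from 103 to 111.8 CPM and from 105.4 to 118.5 CPM (0.05; edgeR adjusted p = 0.809). Both pairs of groups overlapped. Herpud1, a scaffold of the same complex, ranged from 205.2 to 250.1 CPM and from 240.8 to 262.7 CPM, and Edem1, which trims glycans of misfolded proteins, from 374.5 to 467.9 CPM and from 388.1 to 437.4 CPM. The derlins, membrane proteins of the retrotranslocation channel, were likewise not called. Derl1 ranged from 254.4 to 259.2 CPM and from 260.1 to 279.5 CPM, which did not overlap, and Derl2 from 98.83 to 114.6 CPM and from 110.2 to 136.7 CPM. The edgeR adjusted p of these 4 genes lay between 0.327 and 0.771. Derl1 has a processed pseudogene in the table, Gm35638, with which reads could be shared.

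The translocon genes differed among themselves. Sec61b, the small beta subunit, had the highest fold change of the 33 genes. It stood at 222.8, 274.3 and 272.3 CPM in the WT libraries and at 298.9, 442.1 and 345 CPM in the knockout libraries, without overlap (log2 fold change 0.50 ± 0.14; edgeR adjusted p = 0.0868). It did not pass the test, and was called in 4 of 18 alternatives (lowest adjusted p 0.0121). Sec61a1, which forms the channel itself, stood at 748, 768.4 and 589.4 CPM and at 788.7, 616.4 and 608.3 CPM (-0.06 ± 0.13; edgeR adjusted p = 0.812). Its range within WT was about as wide as that within ICOS KO. Of the TRAP complex, which assists translocation, Ssr1 ranged from 227.2 to 248.5 CPM and from 225.2 to 263.3 CPM, and Ssr3 from 123.5 to 144 CPM and from 135.7 to 148.5 CPM (edgeR adjusted p = 0.861 and 0.547).

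Both genes of the inner COPII coat, which collects cargo for exit from the ER, had lower means in ICOS KO. Sec23b stood at 236, 231.4 and 204.6 CPM in the WT libraries and at 221.5, 150.3 and 176.3 CPM in the knockout libraries. ICOS KO replicate 1 lay within the WT range, and the value of -0.29 ± 0.13 (SE, log2) did not pass the test (edgeR adjusted p = 0.252). Without that replicate Sec23b was called lower (edgeR adjusted p = 0.0378). Sec24d stood at 96.32, 99.23 and 87.26 CPM and at 98.49, 63.74 and 83.43 CPM (log2 fold change -0.20 ± 0.15; edgeR adjusted p = 0.457). It shows the same order of the ICOS KO libraries, with replicate 1 highest and replicate 2 lowest. With the trend for transcript length and GC content removed, the log2 fold changes were -0.24 for Sec23b and -0.03 for Sec24d.

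Summed over the 33 genes, the level was 16120, 16000 and 15430 CPM in WT and 17720, 16530 and 17020 CPM in ICOS KO. This gave 15850 ± 366.7 and 17090 ± 600.1 CPM on average (SD, n = 3 per group), a ratio of 1.079, and with TMM scaling the groups did not overlap. The TMM factors were 1.016 to 1.031 in WT and 0.9549 to 0.9974 in ICOS KO. They lower the WT sums and raise those of ICOS KO, and without them the groups overlap. By role the ratio was between 1.066 and 1.109 for chaperones, lectins, isomerases, degradation and translocon genes. It was 0.9973 for the sensors and 0.8314 for the 2 COPII coat genes among the 33. For the 8 genes with an ER stress element the median log2 fold change was 0.12 (range -0.19 to 0.41), with 5 positive and 1 called (Creld2). The 20 genes with a window and no full match to that element had a median of 0.06 (range -0.29 to 0.50). Sec24d and Txndc5, with a UPR element, are among the 20, and Manf and Hyou1, without a window, are in neither group. Other forms of the ER stress element were not searched.

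Fold changes of the ER genes went with transcript length. Spearman's rho between log2 fold change and length of the longest annotated transcript was -0.48 over the 33 genes and -0.36 over 13388 tested genes, given as a description since genes in the same libraries are not independent. The 16 genes shorter than the median of 3118 bases had a median fold change of 0.13 (log2) with 3 negative, and the other 17 had a median of -0.06 with 9 negative. With the trend for length and GC content removed, Manf (0.57, edgeR adjusted p = 0.00906), Os9 (0.57, 0.00278) and Creld2 (0.32, 0.0271) were still called. Ppib (0.51, 0.0158), Dnajc3 (0.39, 0.0286) and Dnajb11 (0.29, 0.0457) were then called as well, which made 6, and 4 of the 33 genes were negative. All tested genes shifted too, with 357 called higher in that fit against 176 in the reported one. Their median log2 fold change moved from -0.004 to 0.049. The short genes Sec61b and Sdf2l1 moved toward 0 in that fit, to 0.21 (edgeR adjusted p = 0.326) and 0.11 (0.529). That fit takes the longest annotated transcript of each gene, 3305 bases for Ppib. Which transcripts were expressed is not known from counts per gene.

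**Figure D4:**
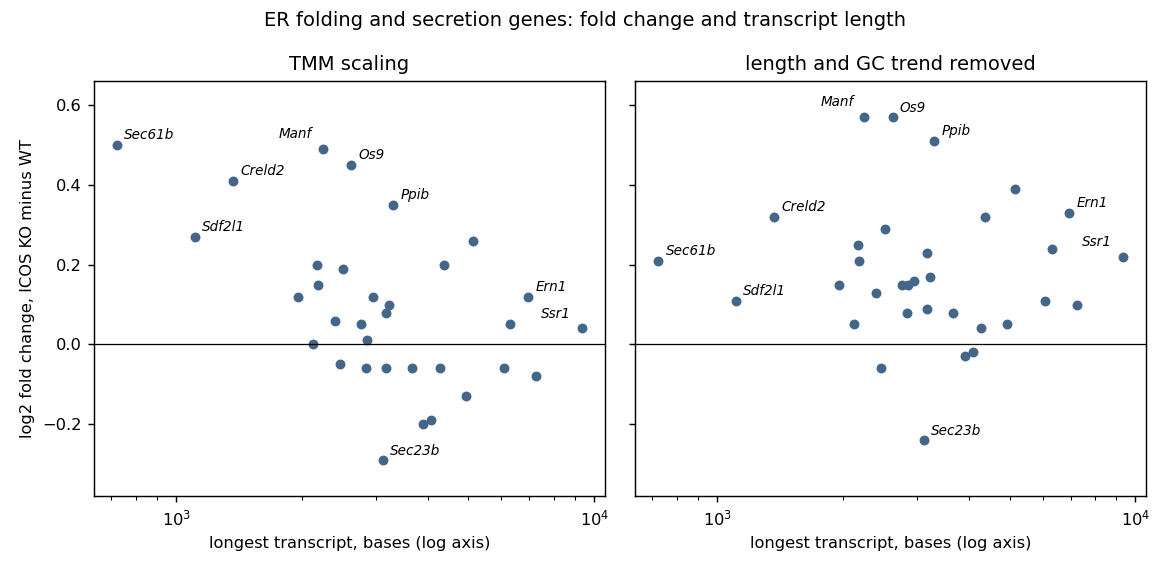
Log2 fold change of each ER gene, ICOS KO minus WT, against the length of its longest transcript in bases (log axis), with TMM scaling (left) and with the trend for length and GC content removed (right). On the left the shortest transcript, Sec61b, lies highest (0.50) and Sec23b lowest (-0.29). On the right Sec61b stands at 0.21, Manf and Os9 at 0.57, and 4 genes lie below 0.

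Other genes of the same pathways were counted from 8 lists with 150 genes in the table, of which 147 were tested. In these lists 5 genes were called higher and 3 lower, beside 1.29% and 2.01% of all tested genes, and 139 did not pass. Their median log2 fold change was 0.09, with 86 positive and 61 negative values. Every ICOS KO library was above every WT library for 44 and below for 6 of the 147, against 11.9% and 12.5% of all tested genes. The number called higher was 0 without WT replicate 1 or without ICOS KO replicate 3, 1 without WT replicate 2 or without ICOS KO replicate 2, and 19 without ICOS KO replicate 1. Without ICOS KO replicate 1 the number called lower was 5. In that fit 491 of all genes were called higher and 599 lower, against 176 and 275 with all libraries. The lists were written with results of these data known, and no test of a list was made.

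Among 22 other genes of the COPII coat and of cargo receptors, 2 receptors were called, in opposite directions. Surf4, a receptor that carries soluble proteins out of the ER, stood at 1485, 1456 and 1332 CPM in the WT libraries and at 932.4, 816.5 and 863.2 CPM in the knockout libraries. It fell from 1425 ± 81.48 to 870.7 ± 58.32 CPM (SD, n = 3 per group), a log2 difference of -0.71 ± 0.08 (SE) with an edgeR adjusted p of 0.000844, and was called in all 18 alternatives. Lman1, the lectin receptor ERGIC-53, stood at 224.5, 244.1 and 213.3 CPM and at 307.6, 331 and 330.4 CPM. It rose 1.421-fold (0.51 ± 0.09; edgeR adjusted p = 0.0114), and it was no longer called when WT replicate 1 or ICOS KO replicate 3 was left out (up to 0.0772). The remaining 20 genes of that list did not pass, and the median of the list was 0.07.

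Among 26 other folding factors, Fkbp2, a prolyl isomerase of the ER, rose from 99.74 ± 8.652 to 150.9 ± 21.96 CPM (edgeR adjusted p = 0.0215), and Dnajc10, a disulfide reductase with a J domain, fell from 73.85 ± 2.055 to 49.64 ± 7.255 CPM (0.0296). Fkbp2 was no longer called on leaving out WT replicate 1 or 2 or, in ICOS KO, replicate 2 or 3. Dnajc10 was no longer called on leaving out any of the WT replicates or, in ICOS KO, replicate 2 or 3. In the list of 23 other degradation genes, Selenos, a membrane selenoprotein of the retrotranslocation complex, rose from 205.8 ± 15.17 to 282 ± 26.02 CPM (edgeR adjusted p = 0.0356). Among 23 further genes of the translocon, signal recognition particle and signal peptidase, 18 had positive fold changes and the median was 0.26. Of these, Ssr2, the beta subunit of the TRAP complex to which Ssr1 and Ssr3 belong, rose from 371.5 ± 24.09 to 499 ± 47.88 CPM (edgeR adjusted p = 0.0395). The Selenos and Ssr2 calls were each lost with library totals and on leaving out WT replicate 1 or 2 or, in ICOS KO, replicate 2 or 3, and that of Ssr2 also without WT replicate 3.

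No gene of the oligosaccharyltransferase, which attaches the sugar chains that the lectin chaperones read, was called among 12, with 4 at an unadjusted p under 0.05, beside 19.8% of all tested genes. Their median was 0.17, and the lowest p were those of Ostc (means of 222.8 CPM in WT and 295.1 CPM in ICOS KO; edgeR adjusted p = 0.0626) and Dad1 (446.2 and 590.4 CPM; 0.0689). Of 13 other sensors and regulators of the unfolded protein response none was called, with 3 at an unadjusted p under 0.05 and a median of 0.02. Creb3 (edgeR adjusted p = 0.0771) and Ufm1 (0.155) had the lowest p. The 14 genes of the COPI coat and the KDEL receptors, which return escaped chaperones to the ER, had a median of -0.08 and no call, with 4 at an unadjusted p under 0.05, led by Kdelr2 (edgeR adjusted p = 0.106) and Cope (0.113).

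The PERK branch of the response acts through ATF4 and was counted over 14 tested genes. Atf3, a stress-induced transcription factor, stood at 15.94, 14.04 and 18.23 CPM in the WT libraries and at 7.815, 6.69 and 6.68 CPM in the knockout libraries. It fell from 16.07 ± 2.096 to 7.062 ± 0.6523 CPM (log2 fold change -1.18 ± 0.19, SE; edgeR adjusted p = 0.00609) and was called in all 18 alternatives. Nupr1, a stress-induced nuclear protein, rose from 92.12 ± 2.734 to 133 ± 23.66 CPM (edgeR adjusted p = 0.0472). That call was lost in 8 of 18 alternatives, 5 of which left out a library (each WT replicate in turn and, in ICOS KO, replicates 2 and 3). The other 12 genes did not pass, and the median was 0.13. Atf3 responds to many stimuli besides ER stress, so it is not a marker of this branch alone.

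**Figure D5:**
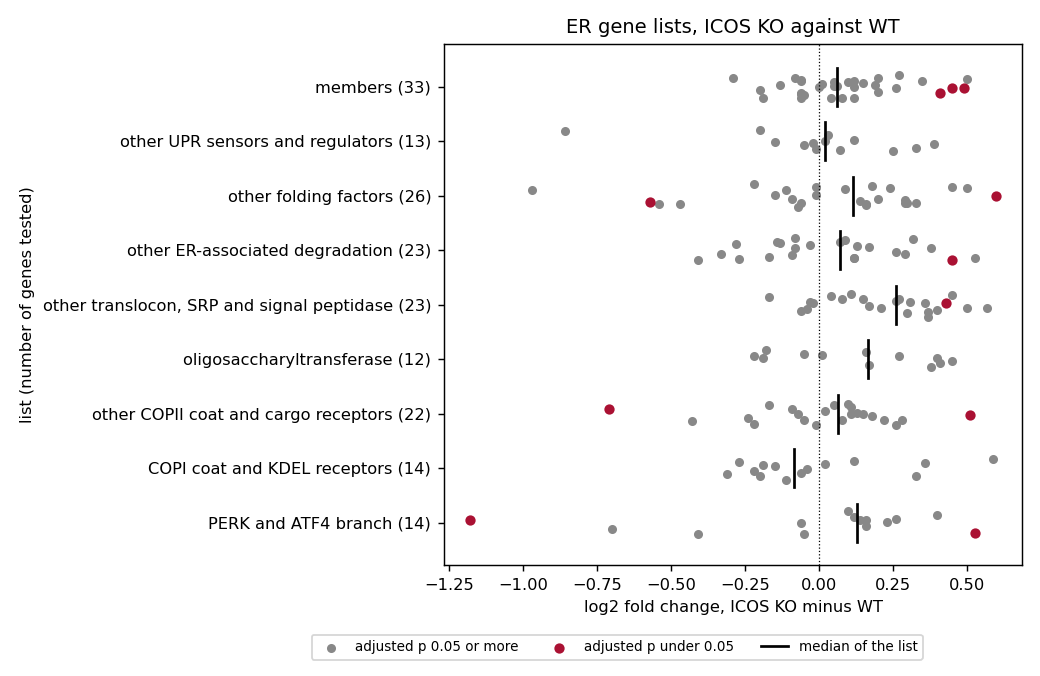
Log2 fold change, ICOS KO minus WT, of the 33 ER genes ("members") and of 8 lists of other ER genes (points; red, edgeR adjusted p under 0.05; black bars, list medians; points are spread vertically within a list for legibility). Red points to the right are Creld2, Manf and Os9 among the 33 genes and 5 genes in the other lists. Red points to the left are Dnajc10, Surf4 and Atf3.

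Markers of other cell types moved between the genotypes alongside these results. Of 16 plasma and B cell markers, 14 were tested, 3 were higher (Cd79b, Igha and Igkc) and 1 was lower (Ighg2b, at 0 in every ICOS KO library). The calls of Cd79b, Igha and Igkc were lost in several alternatives, each of them with library totals, with no filter and without WT replicate 1, WT replicate 2 or ICOS KO replicate 3. Igkc was also lost without ICOS KO replicate 2, Cd79b and Igha without WT replicate 3, and Igha without ICOS KO replicate 1. The summed level of the list was 1755 to 2644 CPM in WT and 3100 to 3187 CPM in ICOS KO, without overlap, most of it from Ighm and Igkc. Plasma cells are rich in the ER genes described here, and their genes were present at unequal levels. Jchain, which joins antibody units, was at 117.6 to 161.1 CPM in WT and 167.5 to 177.5 CPM in ICOS KO, and Mzb1, an ER co-chaperone of antibody-secreting cells, at 21.35 to 27.01 and 29.99 to 36.75 CPM. All ICOS KO libraries were above WT for both, and neither was called (edgeR adjusted p = 0.158 and 0.0915). Sdc1 was at 6.415 to 7.026 and 2.556 to 6.458 CPM, and Tnfrsf17 had 0 to 5 counts in WT and 2 to 7 in ICOS KO. Derl3, a derlin of secretory cells with an ER stress element in its window, was at 3.937 and 5.696 CPM (edgeR adjusted p = 0.313). Of 13 mast cell and basophil markers in the table, 9 were tested and 7 were lower (Tpsab1, Tpsb2, Cpa3, Cma1, Mcpt8, Gata2 and Fcer1a), with a summed level of 356.3 to 410 CPM in WT and 60.88 to 72.34 CPM in ICOS KO. Leaving out WT replicate 1 or WT replicate 2 ended the calls of Gata2 and Fcer1a, and leaving out WT replicate 3 or ICOS KO replicate 3 that of Fcer1a.

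T cell markers summed to 247.6 to 301.4 CPM in WT and 368.7 to 470.8 CPM in ICOS KO, with Trbc1 and Trbc2 higher and Cd3e lower among 7 tested. Most of the sum came from Trbc1, Trbc2 and Cd3g. Trac had means of 0.988 CPM in WT and 0.579 CPM in ICOS KO, and Cd3d of 1.163 and 0.9767 CPM, and neither was called. Leaving out WT replicate 1, WT replicate 2 or ICOS KO replicate 3 ended the calls of Trbc2 and Cd3e, and leaving out WT replicate 3 that of Cd3e. Cd8a and Cd8b1 were at 0 in 4 libraries each. Of 9 tested macrophage and dendritic cell markers, Csf1r was lower (not called without WT replicate 1 or without ICOS KO replicate 3), and their sum was 411.6 to 792 CPM and 372.1 to 510.6 CPM. Of 6 tested epithelial and stromal markers, 2 had positive and 4 negative fold changes, with sums of 146.3 to 256.7 CPM and 144.3 to 275.3 CPM. Epcam was called higher. Sftpc went the other way without a call (means of 32.98 CPM in WT and 8.109 CPM in ICOS KO; edgeR adjusted p = 0.141). Whether such other cells were present, and their part in the changes of the ER genes, was not tested.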

How the data were processed

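Estimated counts of RNA per gene were deposited by the authors for 6 libraries (3 WT, 3 ICOS KO), and 39.4% of the values were not whole. Per the labels' protocols, 10 pg of RNA per library was amplified with a SMARTer low-input kit. Per the submitters' processing notes, Partek 10.0, STAR 2.7.8, DESeq2 and build mm10 were used. How reads were counted, with which annotation and strand setting, is not given in the sources used here, and overlapping genes may share reads. Besides Manf and Ppib, Sec61a1 shares 549 exonic bases with Gm44170 on the opposite strand. Hsp90b1 shares 415 with 1810014B01Rik, Txndc5 311 with Gm31834 and Derl2 231 with Mis12, also on opposite strands. Duplicates are mentioned in the design text, but each genotype had 3 libraries, which all entered the fits.

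Estimated counts were rounded and tested across all genes with edgeR 4.0.16 (limma 3.58.1, R 4.3.3): filterByExpr, TMM scaling, quasi-likelihood F test of ICOS KO against WT without covariates, Benjamini-Hochberg adjustment over 13691 genes and a threshold of 0.05. "Called" means past that threshold. CPM are TMM-normalised, except those of Malat1 and of the floors, which are scaled to library totals. SE are those implied by the F statistic, and floors of 3 counts cover counting error only. The fit was tested on simulated counts. The 33 genes and all lists were chosen with earlier results of these data known. Named were all 33 genes, Icos, called genes of each other list, or else the 2 with the smallest p. Positions and exonic lengths are from GENCODE M21 (GRCm38) and promoter windows from RefSeq. Alternatives were other scalings, DESeq2 1.42.0, voom with and without quality weights, other filters, the replicate number as a block, gene classes left out, removal of the trend with length and GC content, and each library left out. Sdc1, Tnfrsf17, Jchain, Mzb1, Ighm, Il5, Thy1, Cd3d, Cd3g, Trac, Cd8a, Cd8b1 and Derl3 were named outside this rule, after their values were seen.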

Additional observations from a re-analysis of the deposited data

How the results depend on the processing

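The number of all genes called (451) was 909 with DESeq2, 906 with voom and quality weights, 784 with the replicate block and 193 to 1090 with a library left out. Those called higher (176) numbered 127 with library totals, 402 with DESeq2, 399 with voom and quality weights and 374 with the replicate block. They numbered 357 after removal of the length and GC trend and 69 to 491 with a library left out. All genes called lower (275) numbered 507 with DESeq2, 507 with voom and quality weights and 123 to 599 with a library left out. The number of the 33 ER genes called higher (3) was 1 with library totals, 5 each with DESeq2, voom with quality weights and the replicate block, 6 after removal of the length and GC trend, and 0 to 5 with a library left out. The number called lower (0) was 0 to 1 with a library left out. Their median log2 fold change (0.063) was 0.001 with library totals and 0.151 after removal of the length and GC trend, where the median of all genes (-0.004) was -0.068 and 0.049. Other ER genes called higher (5) numbered 2 with library totals, 18 with DESeq2, 16 with voom and quality weights, 16 with the replicate block, 23 after removal of the length and GC trend, and 0 to 19 with a library left out. Those called lower (3) numbered 2 to 5 with a library left out. The cause of these shifts was not tested. Of the 33 genes, 24 were called in none of the 18 alternatives nor in the reported fit, and 14, none of them called, changed sign in at least 1. No called gene reversed. Libraries with the same number deviated together by small correlations of 0.087, 0.078 and 0.064, though each correlated best with its own number. The reported fit has no block, and the block was run only as an alternative. Dnajb9, the scarcest of the 33 genes, had an SE of 0.22, against a median of 0.1. Counting error and spread between libraries were not separated.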
